A study of Mus musculus with 9 samples.

Results

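TGF-β1 was added to micromass cultures of mouse sclerotome, and its effect on RNA across the genome was measured on 3 treated and 3 untreated arrays, which are 6 of the 9 arrays of the series. Sclerotome is the ventral part of the somite that forms vertebrae and intervertebral discs, and a micromass is a dense drop of dissociated cells. The cells came from E11.5 mouse embryos, with the notochord removed, and all groups were grown in the same medium with serum, ascorbic acid and β-glycerolphosphate. The treated cultures received TGF-β1 at 5 ng/ml for 8 h, the untreated cultures received no factor, and the remaining 3 arrays were of cultures given BMP4 at 50 ng/ml for 8 h. RNA was amplified in 2 cycles from 50 ng of total RNA per sample and hybridised to a whole-genome Affymetrix array, so each array measures a mixed population of primary cells. All 45037 probe sets other than the 64 control probe sets of the 45101 on the array are the subject.

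TGF-β1 is a secreted dimer that binds a pair of receptor kinases, which phosphorylate Smad2 and Smad3. These join Smad4, enter the nucleus and change transcription, and inhibitory Smads and ubiquitin ligases then damp the signal. In the axial skeleton the pathway is known for its role in intervertebral disc, tendon and other fibrous tissue. The comparison with untreated cultures asks which genes respond within hours, and the account here turns on families beyond the classical targets.

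The deposited values are log2 intensities that were centred for each probe set on the median of all 9 arrays. A value near 0.00 therefore lies at the median of the 9 arrays and does not mean absence, and neither the level of a gene nor its detection can be read from these values. Differences were tested with limma over 45037 probe sets in 1 fit of all 9 arrays, and a gene was called at a Benjamini-Hochberg adjusted p under 0.05. Of 18193 genes, 462 were called higher with TGF-β1 and 766 lower, which are 2.54% and 4.21% of genes. These shares are the background for the counts of called members of a gene group in this fit. With at least 2-fold as well, 96 genes were higher (0.528%) and 66 lower (0.363%). Of the probe sets themselves, 4.43% were called. The share of all genes with an unadjusted p under 0.05 was not computed. Group counts at that threshold therefore have no background here and are a description only. The median log2 difference over all genes was 0.01.

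The 3 genes that mark the treatment behaved as the label says. Fmod, a collagen-binding proteoglycan of fibrous tissue, had centred log2 values of -0.14, -0.38 and -0.60 in the untreated arrays and 2.08, 2.60 and 1.79 in the TGF-β1 arrays. Scx, a transcription factor of tendon progenitors, had 0.00, 0.00 and -0.20 in the untreated arrays and 1.89, 2.06 and 1.88 in the TGF-β1 arrays. Pmepa1, a membrane protein that limits TGF-β signalling, had -0.25, -0.59 and -0.47 in the untreated arrays and 1.41, 1.70 and 1.54 in the TGF-β1 arrays. The groups did not overlap for any of them, and the log2 differences were 2.53 ± 0.20 (SE), 2.01 ± 0.15 and 1.99 ± 0.14, with limma adjusted p of 0.000206, 0.000185 and 0.000138.

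The arrays numbered 2 stood apart from the other arrays of their groups on the third principal component, which held 16.7% of the variance, at 14.3 for untreated, 19.4 for BMP4 and 30.5 for TGF-β1, against -24.0 to 4.75 for the other 6 arrays. Counts without these 3 arrays are given beside each group whose called members are counted. Without them 295 were called higher (1.62%) and 306 lower (1.68%). Deviations from the group mean correlated between same-numbered TGF-β1 and untreated arrays, and in a fit that takes the replicate number as a block 922 genes were called higher (5.07%) and 1508 lower (8.29%). The 5′ minus 3′ differences of the Gapdh control probe sets spanned -0.11 to 0.06 in the untreated arrays and 0.00 to 0.06 in the TGF-β1 arrays. Those of the actin control probe sets spanned -0.13 to -0.01 and -0.05 to 0.02. These values are centred as well, so they compare arrays only and do not show whether the RNA was intact. Differences in a mixed culture can come from fewer cells of a type or from less RNA per cell, and these cannot be told apart.

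**Figure D1:**
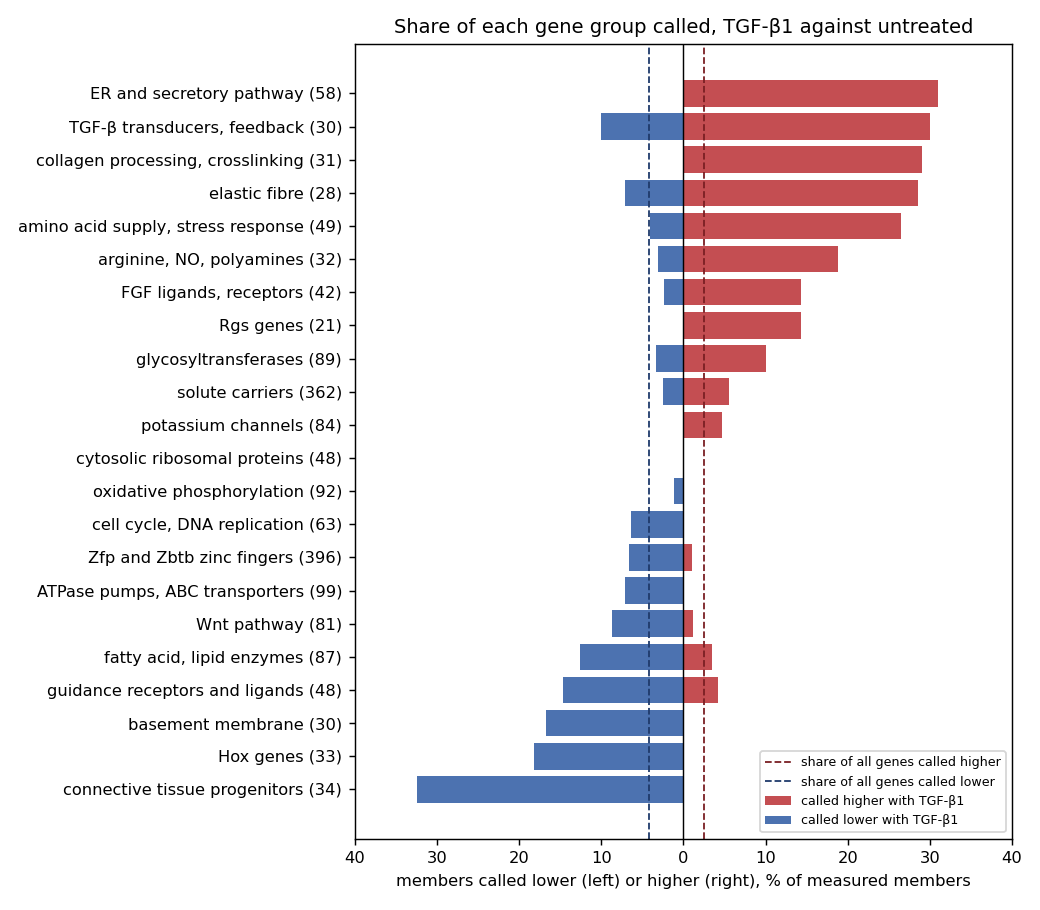
Share of the measured members of 22 gene groups called higher (red, to the right) or lower (blue, to the left) with TGF-β1 against untreated, in percent, with the number of measured members in parentheses. Dashed lines mark the share of all genes called higher (2.54%) and lower (4.21%), and the secretory pathway group (31.0% higher) and the connective tissue progenitor group (32.4% lower) lie farthest from them. The groups were chosen with earlier results of these data known, so the distances are a description and no test.

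Genes of the secretory pathway were called higher in 31% of measured members, against 2.54% of all genes. The pathway folds proteins in the endoplasmic reticulum, moves them to the Golgi in COPII vesicles and returns escaped residents by KDEL receptors. Of 58 measured members, 18 were called higher and 0 lower by limma, with 31 higher and 2 lower at an unadjusted p under 0.05, and the median log2 difference was 0.22 against 0.01 over all genes. Kdelr3, a KDEL receptor, had centred log2 values of -0.27, -0.59 and -0.33 in the untreated arrays and 0.55, 0.64 and 0.52 in the TGF-β1 arrays. The difference was 0.97 ± 0.09 (SE), adjusted p = 0.000592. Herpud1, a membrane protein of endoplasmic reticulum-associated degradation, had -0.32, -0.44 and -0.27 in the untreated arrays and 0.50, 0.54 and 0.42 in the TGF-β1 arrays, a difference of 0.83 ± 0.07 (SE), adjusted p = 0.00042. Creb3l2, a membrane-anchored transcription factor of secretory genes, had -0.36, -0.47 and -0.35 in the untreated arrays and 0.43, 0.41 and 0.42 in the TGF-β1 arrays, a difference of 0.81 ± 0.08 (SE), adjusted p = 0.000544. In each of these genes all 3 treated arrays lay above all 3 untreated arrays.

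Eif2ak3, the stress kinase PERK, was higher by 0.60 ± 0.10 on the log2 scale (limma adjusted p = 0.00823), though only 1 of its 3 probe sets was called. Nucb2, a calcium-binding protein, was higher by 0.60 (adjusted p = 0.0266), and Xbp1, the transcription factor spliced in the unfolded protein response, by 0.51 (adjusted p = 0.00982). The COPII coat and its cargo receptors were represented by Sec24d at 0.57, Surf4 at 0.60, Sec13 at 0.42, Sec31a at 0.37 and Sec23b at 0.31, all log2 differences of called genes. Sec61a1, the channel through which new chains enter, differed by 0.54 (adjusted p = 0.0452). The remaining called members were Manf at 0.57, Kdelr2 at 0.46, Sar1a at 0.43, Gorasp2 at 0.41, Uso1 at 0.35 and Golim4 at 0.30. Of 104 chaperone genes, 8 were called higher (7.69%) and 3 lower (2.88%). The endoplasmic reticulum members Fkbp11 (0.89 ± 0.08), Dnajb9 (0.63 ± 0.10) and Sdf2l1 (0.43 ± 0.07) were called higher. Dnajc21 and Fkbp1b were also called higher, and those called lower were Hspa12b, Hspb6 and Hspb11. The chaperone counts were 4 to 8 higher and 1 to 4 lower with 1 array left out (fewest of both without TGF-β1 replicate 1), 13 and 4 with the replicate block, and 3 and 0 without the arrays numbered 2.

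The abundant folding proteins were not called. Hspa5, the chaperone BiP, had centred log2 values of 0.21, -0.16 and 0.00 in the untreated arrays and 0.23, -0.11 and -0.04 in the TGF-β1 arrays, which overlap, and a difference of 0.01 ± 0.12 (limma adjusted p = 0.977). Calr, a lectin chaperone, differed by 0.01 ± 0.08 (adjusted p = 0.969), Hsp90b1 by 0.10 ± 0.15 (adjusted p = 0.759) and Pdia6, a disulfide isomerase, by 0.22 ± 0.15 (adjusted p = 0.46). The secretory counts were 8 to 16 higher and 0 lower with 1 array left out (fewest higher without TGF-β1 replicate 1), 21 and 0 with the replicate block, and 6 and 0 without the arrays numbered 2. Kdelr3, Herpud1, Creb3l2, Eif2ak3, Xbp1, Sec24d, Surf4, Manf, Fkbp11, Dnajb9 and Sdf2l1 were called whichever array was left out. The calls of Kdelr2 (2 arrays, 0.0563 without TGF-β1 replicate 1), Sec13 (5 arrays, 0.0783 without TGF-β1 replicate 2), Uso1 (4 arrays, 0.0882 without TGF-β1 replicate 3), Sar1a (5 arrays, 0.0968 without TGF-β1 replicate 1), Sec31a (4 arrays, 0.0992 without TGF-β1 replicate 3), Nucb2 (4 arrays, 0.102 without TGF-β1 replicate 3), Gorasp2 (6 arrays, 0.119 without untreated replicate 1), Golim4 (9 arrays, 0.126 without TGF-β1 replicate 1), Sec61a1 (7 arrays, 0.147 without TGF-β1 replicate 1) and Sec23b (9 arrays, 0.15 without TGF-β1 replicate 1) each ended without at least 1 of the 9 arrays, where the parentheses give the number of arrays whose removal ended the call and the highest adjusted p.

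**Figure D2:**
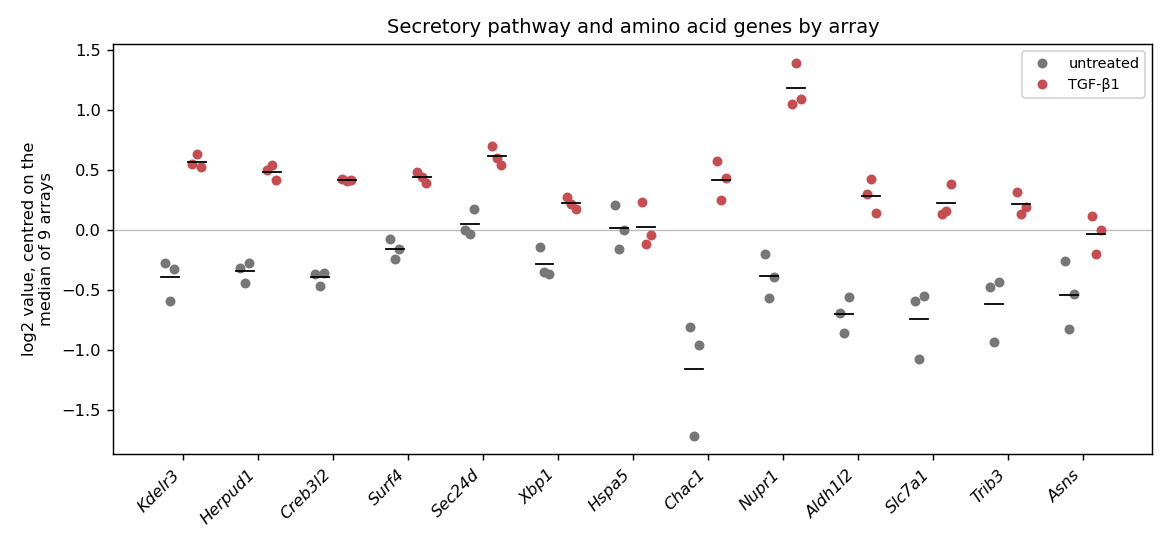
Centred log2 values of secretory pathway genes (Kdelr3 to Hspa5) and amino acid and stress response genes (Chac1 to Asns) on the 3 untreated (grey) and 3 TGF-β1 (red) arrays, with group means as black lines. The groups do not overlap for any gene shown except Hspa5, whose means differ by 0.01.

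Genes that supply amino acids, and targets of the integrated stress response, formed another group with more rises than the background. This response slows translation through eIF2α kinases and raises the factor Atf4, which switches on amino acid transporters and synthetic enzymes. Of 49 measured members, 13 were called higher and 2 lower, with a median log2 difference of 0.26. Chac1, an enzyme that degrades glutathione, had centred log2 values of -0.81, -1.71 and -0.96 in the untreated arrays and 0.57, 0.25 and 0.43 in the TGF-β1 arrays. Its difference was 1.58 ± 0.22 (SE), adjusted p = 0.00396. Nupr1, a small stress-induced chromatin protein, had -0.20, -0.56 and -0.39 in the untreated arrays and 1.05, 1.40 and 1.10 in the TGF-β1 arrays, a difference of 1.57 ± 0.12 (SE), adjusted p = 0.000208. For both genes every treated array was above every untreated array.

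Amino acid transporters and enzymes were among the other rises. Slc7a1, the main carrier of cationic amino acids, had -0.59, -1.07 and -0.55 in the untreated arrays and 0.14, 0.16 and 0.38 in the TGF-β1 arrays, a difference of 0.97 ± 0.16 (SE), adjusted p = 0.0105. The related Slc7a3 differed by 0.91 ± 0.17 (limma adjusted p = 0.018), Slc1a4, a carrier of alanine and serine, by 0.85 ± 0.13 (adjusted p = 0.00673), and Slc7a5, a carrier of large neutral amino acids, by 0.74 ± 0.17 (adjusted p = 0.0374). Among enzymes, Aldh1l2 of mitochondrial folate metabolism differed by 0.99 ± 0.13 and the branched-chain aminotransferase Bcat1 by 0.94 ± 0.13, with adjusted p of 0.00303 and 0.0035. The pseudokinase Trib3 was higher by 0.83, Mthfd2 by 0.74, the proline synthesis enzyme Aldh18a1 by 0.62, and Shmt2 and Phgdh of serine and glycine synthesis by 0.49 and 0.41. Glutamine synthetase, Glul, was lower at -0.60 ± 0.11 (adjusted p = 0.0155), as was the lipoprotein receptor Vldlr at -0.66 ± 0.16 (adjusted p = 0.0452).

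The factor Atf4 and some of its known targets were not called. Asns, asparagine synthetase, had -0.26, -0.83 and -0.54 in the untreated arrays and 0.11, -0.20 and 0.00 in the TGF-β1 arrays, which did not overlap, with a difference of 0.51 ± 0.14 (limma adjusted p = 0.0667, and 0.0193 with the replicate block). Atf4 itself differed by 0.42 ± 0.16 (adjusted p = 0.186), and Ddit3, the pro-apoptotic factor CHOP, by 0.07 ± 0.18 (adjusted p = 0.885). Members called numbered 7 to 13 higher and 0 to 2 lower with 1 array left out (fewest higher without TGF-β1 replicate 1 and fewest lower without TGF-β1 replicate 3), 19 and 2 with the replicate block, and 9 and 1 without the arrays numbered 2. Single arrays ended the calls of Slc7a1 (1 array, 0.0512 without TGF-β1 replicate 3), Shmt2 (4 arrays, 0.0561 without untreated replicate 1), Glul (3 arrays, 0.0574 without TGF-β1 replicate 3), Aldh18a1 (2 arrays, 0.0644 without TGF-β1 replicate 1), Slc7a3 (2 arrays, 0.0748 without TGF-β1 replicate 1), Slc7a5 (7 arrays, 0.131 without TGF-β1 replicate 1), Phgdh (8 arrays, 0.131 without TGF-β1 replicate 3), Mthfd2 (8 arrays, 0.135 without TGF-β1 replicate 3) and Vldlr (7 arrays, 0.15 without TGF-β1 replicate 1).

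Promoters of these groups were searched because of their shares of called members. The windows run from 250 bases before to 50 after the RefSeq start of a gene in build GRCm38.p6, both strands were searched, and a gene counted once if any of its windows held a motif. The core TGATGNAA of amino acid response elements stood in 4.51% of the 27025 genes with a window. It stood in 4 of the 10 amino acid and stress genes that were called higher and had a window (Chac1, Nupr1, Slc1a4 and Trib3), in 6 of the 30 members not called higher, Asns among them, and in Fgf21 among the 20 largest rises. Windows of Chac1, Trib3, Nupr1 and Fgf21 are shown, with the core or its reverse complement in capitals. They lie at chr2:119350992-119351291, plus strand, at chr2:152344011-152344310, minus strand, at chr7:126625421-126625720, minus strand and at chr7:45615441-45615740, minus strand, and each is written in the direction of the gene.
Chac1: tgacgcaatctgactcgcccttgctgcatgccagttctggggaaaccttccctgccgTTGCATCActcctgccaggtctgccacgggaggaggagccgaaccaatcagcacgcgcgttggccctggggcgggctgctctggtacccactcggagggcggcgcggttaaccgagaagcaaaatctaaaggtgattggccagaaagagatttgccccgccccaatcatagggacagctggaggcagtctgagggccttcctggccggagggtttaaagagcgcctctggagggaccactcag
Trib3: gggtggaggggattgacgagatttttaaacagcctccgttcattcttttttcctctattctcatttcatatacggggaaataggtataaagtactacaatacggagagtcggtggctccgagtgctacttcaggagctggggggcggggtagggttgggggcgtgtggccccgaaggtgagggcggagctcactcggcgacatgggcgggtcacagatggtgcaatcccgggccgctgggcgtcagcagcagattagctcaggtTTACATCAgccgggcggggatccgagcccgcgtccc
Nupr1: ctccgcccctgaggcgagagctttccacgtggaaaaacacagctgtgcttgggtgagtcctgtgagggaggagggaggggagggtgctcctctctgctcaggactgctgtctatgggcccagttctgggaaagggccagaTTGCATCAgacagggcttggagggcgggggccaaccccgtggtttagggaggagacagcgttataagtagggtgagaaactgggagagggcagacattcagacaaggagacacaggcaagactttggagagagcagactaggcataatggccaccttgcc
Fgf21: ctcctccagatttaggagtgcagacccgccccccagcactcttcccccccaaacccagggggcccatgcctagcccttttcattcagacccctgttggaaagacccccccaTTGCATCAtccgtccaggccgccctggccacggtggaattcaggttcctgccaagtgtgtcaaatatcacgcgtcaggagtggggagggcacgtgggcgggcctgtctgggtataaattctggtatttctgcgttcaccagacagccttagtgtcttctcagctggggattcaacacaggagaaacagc

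The endoplasmic reticulum stress element, CCAAT and CCACG parted by 9 bases, was present in 0.137% of all genes. It was found in 0 of the 15 secretory genes called higher that had a window, and in 6 of the 36 not called higher, which were Calr, Canx, Hsp90b1, Hspa5, Pdia6 and Syvn1. The Hspa5 window at chr2:34771840-34772139, plus strand is shown with the paired boxes in capitals.
Hspa5: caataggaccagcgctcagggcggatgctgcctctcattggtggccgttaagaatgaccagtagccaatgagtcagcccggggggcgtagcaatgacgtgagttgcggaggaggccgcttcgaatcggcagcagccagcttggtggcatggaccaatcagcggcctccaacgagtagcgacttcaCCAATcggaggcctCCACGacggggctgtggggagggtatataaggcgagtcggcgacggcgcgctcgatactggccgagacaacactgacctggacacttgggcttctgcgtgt
Of the motifs tied to the growth factor pathway, CAGACA, a Smad-binding site with flank, was in 3 of 15 windows of the 20 largest rises, in 2 of 12 of the 20 largest falls and in 23.6% of all genes. The palindrome GTCTAGAC was in none of these and in 0.248% of all genes. TGACTCA (AP-1) was in none and in 5.95%, GGAATG (TEAD) in 3 of 15, 2 of 12 and 16.6%, and the E-box CACGTG in 1 of 15, 0 of 12 and 8.09%. No motif contains another, though the CCACG box can overlap an E-box. A match is a description of letters and not a site.

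Enzymes of arginine and polyamine metabolism were called higher in 6 of 32 members and lower in 1, counting Slc7a1 and Slc7a3 again. Ddah1, which degrades the nitric oxide synthase inhibitor dimethylarginine, had -0.01, -0.29 and 0.00 in the untreated arrays and 2.55, 2.66 and 2.54 in the TGF-β1 arrays, and the groups were far apart. Its difference was 2.69 ± 0.10 (SE), adjusted p = 3.34e-06, and its 5 probe sets were each called higher. Spermine oxidase, Smox, had -0.01, 0.00 and 0.03 in the untreated arrays and 0.49, 0.50 and 0.63 in the TGF-β1 arrays, a difference of 0.53 ± 0.08 (SE), adjusted p = 0.00505, and spermidine synthase, Srm, differed by 0.55 ± 0.11 (adjusted p = 0.0211). Creatine kinase Ckb was higher by 0.47 and Gamt, which makes creatine, lower, with a difference of -0.39. Odc1, ornithine decarboxylase, differed by 0.37 ± 0.12 (adjusted p = 0.12, and 0.0352 with the block), arginase Arg1 by 0.02 and Nos3 by 0.18, none called. Further called genes of small metabolites were cytidine deaminase Cda at 2.14 ± 0.17 and the pyrophosphate transporter Ank at 1.05 ± 0.09. In this group the counts came to 2 to 6 higher and 0 to 1 lower with 1 array left out (fewest higher without TGF-β1 replicate 3 and fewest lower without TGF-β1 replicate 1), 7 and 2 with the replicate block, and 3 and 0 without the arrays numbered 2, and single arrays ended the calls of Srm (3 arrays, 0.0775 without TGF-β1 replicate 3), Ckb (5 arrays, 0.0803 without TGF-β1 replicate 3) and Gamt (5 arrays, 0.0934 without TGF-β1 replicate 3).

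Solute carriers as a family numbered 362, with 20 called higher (5.52%) and 9 lower (2.49%). After the amino acid carriers, the largest rise was Slc25a33, a mitochondrial pyrimidine carrier, at 0.67 ± 0.10. The largest fall was Slc26a7, an anion exchanger, which had -0.07, 0.87 and 0.00 in the untreated arrays and -1.47, -1.48 and -1.24 in the TGF-β1 arrays. The groups did not overlap, and the difference was -1.66 ± 0.35 (SE), adjusted p = 0.0265. Carriers called came to 4 to 17 higher and 2 to 11 lower with 1 array left out (fewest of both without TGF-β1 replicate 3), 32 and 16 with the replicate block, and 12 and 3 without the arrays numbered 2. Single arrays ended the call of Slc26a7 (5 arrays, 0.0912 without TGF-β1 replicate 1).

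Potassium channels were called in 4 of 84, all higher. Of these, 3 were tandem pore domain channels, which carry background potassium current. Kcnk1 had -0.12, -0.08 and -0.36 in the untreated arrays and 1.92, 1.89 and 1.69 in the TGF-β1 arrays, a difference of 2.02 ± 0.19 (SE), adjusted p = 0.000513. Kcnk6 had -0.17, -0.21 and -0.61 in the untreated arrays and 0.91, 1.01 and 0.96 in the TGF-β1 arrays, a difference of 1.29 ± 0.12 (SE), adjusted p = 5.00e-04. For both, every treated array was at least 1 log2 unit above every untreated array. Kcnk5 differed by 0.48 ± 0.10 (adjusted p = 0.0291), and the voltage-gated Kcnq5 by 0.82 ± 0.11 (adjusted p = 0.0041). Of the ATPase pumps and ABC transporters, whose median log2 difference was 0.05, 0 were called higher and 7 lower of 99 by limma, and 9 higher and 18 lower at an unadjusted p under 0.05. The lipid transporter Abca9 was at -1.68 ± 0.19, the sodium pump subunit Atp1b2 at -0.93 ± 0.12, the sulfonylurea receptor Abcc9 at -0.88 ± 0.16 and the peroxisomal Abcd2 at -0.71 ± 0.10. Pumps and ABC transporters called came to 0 to 2 higher and 3 to 7 lower with 1 array left out (fewest lower without TGF-β1 replicate 3), 4 and 8 with the replicate block, and 0 and 4 without the arrays numbered 2, and potassium channels to 3 to 4 higher and 0 lower with 1 array left out, 4 and 1 with the replicate block, and 3 and 0 without the arrays numbered 2. The calls of Abcc9 (3 arrays, 0.0576 without TGF-β1 replicate 3) and Kcnk5 (5 arrays, 0.0854 without TGF-β1 replicate 2) ended without some single arrays.

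Glycan enzymes included successive steps of ganglioside synthesis. Of 89 glycosyltransferases, 9 were called higher and 3 lower. St3gal5, which makes ganglioside GM3, had -0.15, 0.01 and 0.00 in the untreated arrays and 0.60, 0.83 and 0.78 in the TGF-β1 arrays, a difference of 0.78 ± 0.09 (SE), adjusted p = 0.00118. St8sia1, which turns GM3 into GD3, had -0.02, 0.09 and 0.00 in the untreated arrays and 1.41, 2.16 and 1.55 in the TGF-β1 arrays, a difference of 1.68 ± 0.16 (SE), adjusted p = 0.000607, and 3 of 3 probe sets were called. The arrays of the groups were apart for both. B4galnt1, which opens the branch to complex gangliosides, differed by 0.17 ± 0.14 (adjusted p = 0.562). Galnt2, which starts mucin-type O-glycans, was higher by 0.76 ± 0.10 (adjusted p = 0.00303), and Fut10, a fucosyltransferase, lower at -0.68 ± 0.08 (adjusted p = 0.00152). Glycosyltransferases called came to 3 to 7 higher and 1 to 4 lower with 1 array left out (fewest higher without TGF-β1 replicate 3 and fewest lower without BMP4 replicate 1), 10 and 6 with the replicate block, and 3 and 1 without the arrays numbered 2.

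Enzymes that modify and crosslink collagen were among the groups with rises. Of 31 enzymes, 9 were called higher and 0 lower by limma (13 and 3 at an unadjusted p under 0.05), whereas 2 of 42 collagen genes were called higher and 3 lower. The difference between these shares was not tested. Lox, the enzyme that starts collagen and elastin crosslinks, had -0.74, 0.10 and -0.36 in the untreated arrays and 1.11, 1.87 and 0.98 in the TGF-β1 arrays, a difference of 1.65 ± 0.27 (SE), adjusted p = 0.00901. Loxl4 had -0.17, 0.06 and -0.09 in the untreated arrays and 0.77, 0.39 and 0.72 in the TGF-β1 arrays, a difference of 0.70 ± 0.11 (SE), adjusted p = 0.00742, and Loxl3 differed by 0.54 ± 0.09 (adjusted p = 0.00788). Treated and untreated arrays were separate for all 3. Lysyl hydroxylase Plod2 was higher by 0.85 ± 0.17, prolyl 4-hydroxylases P4ha3 by 0.73 ± 0.17 and P4ha2 by 0.62 ± 0.13, and the prolyl 3-hydroxylase complex members P3h4 and P3h1 by 0.39 and 0.35. Among those not called, P4ha1 differed by 0.67 ± 0.33 (adjusted p = 0.308, and 0.0465 with the block), Plod1 by 0.44 ± 0.18 (adjusted p = 0.232, and 0.00785 with the block) and Col1a1 by 0.15 ± 0.08. Enzyme counts were 4 to 9 higher and 0 to 1 lower with 1 array left out (fewest higher without TGF-β1 replicate 2), 12 and 1 with the replicate block, and 3 and 1 without the arrays numbered 2, and collagen counts 0 to 2 higher and 1 to 4 lower with 1 array left out (fewest higher without BMP4 replicate 3 and fewest lower without TGF-β1 replicate 3), 5 and 5 with the replicate block, and 1 and 0 without the arrays numbered 2. The removal of 1 array ended the calls of Plod2 (4 arrays, 0.0782 without untreated replicate 1), P4ha2 (5 arrays, 0.0886 without untreated replicate 1), P3h1 (6 arrays, 0.0909 without TGF-β1 replicate 1) and P4ha3 (6 arrays, 0.113 without TGF-β1 replicate 1).

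Elastic fibre genes were called higher in 8 of 28 and lower in 2. Fbln5, which tethers elastin to microfibrils, had -0.34, -0.62 and -0.26 in the untreated arrays and 0.86, 1.09 and 0.73 in the TGF-β1 arrays, a difference of 1.30 ± 0.12 (SE), adjusted p = 0.000459. Emilin1 differed by 0.59 ± 0.07 (adjusted p = 0.0024), and Efemp1, another fibulin, was lower at -1.06 ± 0.21 (adjusted p = 0.0214). Elastin, Eln, had 0.00, 0.33 and -0.01 in the untreated arrays and 0.74, 1.79 and 0.69 in the TGF-β1 arrays without overlap, a difference of 0.97 ± 0.26 that was not called (limma adjusted p = 0.0717, and 0.00602 with the replicate block). The ADAM and ADAMTS family, which holds secreted and membrane proteases and the ADAMTS-like proteins without a protease domain, had 5 genes called higher and 5 lower of 48. The ADAMTS-like Adamtsl2 was at 2.13 ± 0.17, Adamtsl3 at 0.77 ± 0.16 and Adamtsl1 at -1.12 ± 0.27. Of the proteases, Adamts6 was at 1.53 ± 0.15 and Adamts20 at 1.50 ± 0.16, while Adamts1, an aggrecan-cleaving enzyme, was at -1.23 ± 0.12 and Adamts12 at -0.97 ± 0.18. The elastic fibre counts were 3 to 7 higher and 0 to 2 lower with 1 array left out (fewest of both without TGF-β1 replicate 3), 11 and 4 with the replicate block, and 7 and 3 without the arrays numbered 2, and those of the ADAM and ADAMTS family 3 to 5 higher and 2 to 6 lower with 1 array left out (fewest of both without TGF-β1 replicate 2), 6 and 6 with the replicate block, and 3 and 4 without the arrays numbered 2. Calls that depended on single arrays were those of Adamts12 (3 arrays, 0.0649 without untreated replicate 1), Efemp1 (3 arrays, 0.0823 without untreated replicate 1), Adamtsl3 (4 arrays, 0.0857 without untreated replicate 1) and Adamtsl1 (6 arrays, 0.154 without TGF-β1 replicate 1).

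Basement membrane genes were called lower in 5 of 30 and higher in 0 (by limma, with 3 higher at an unadjusted p under 0.05). Nid2, a nidogen that links laminin to collagen IV, had 0.24, 0.45 and 0.23 in the untreated arrays and -0.46, -0.68 and -0.50 in the TGF-β1 arrays, a difference of -0.85 ± 0.10 (SE), adjusted p = 0.0016. Laminin Lama4 differed by -0.78 ± 0.14, nephronectin Npnt by -0.77 ± 0.13, collagen Col4a5 by -0.73 ± 0.13 and peroxidasin Pxdn by -0.28 ± 0.07. Basement membrane counts came to 0 higher and 2 to 4 lower with 1 array left out (fewest lower without TGF-β1 replicate 3), 1 and 6 with the replicate block, and 0 and 2 without the arrays numbered 2, and single arrays ended the calls of Lama4 (2 arrays, 0.0515 without untreated replicate 2), Npnt (1 array, 0.0554 without TGF-β1 replicate 3), Col4a5 (2 arrays, 0.0559 without TGF-β1 replicate 3) and Pxdn (9 arrays, 0.127 without TGF-β1 replicate 3).

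The genes of the TGF-β pathway itself moved in both directions, with 9 of 30 called higher and 3 lower. Among ligands, Tgfb1 had -0.39, -1.07 and -0.77 in the untreated arrays and 0.54, -0.04 and 0.55 in the TGF-β1 arrays, a difference of 1.09 ± 0.22 (SE), adjusted p = 0.0214. Tgfb3 had 0.00, 0.10 and -0.13 in the untreated arrays and 0.74, 0.75 and 0.66 in the TGF-β1 arrays, a difference of 0.73 ± 0.09 (SE), adjusted p = 0.00201. Tgfb2 had 0.51, 0.27 and 0.16 in the untreated arrays and -0.49, -1.07 and -0.43 in the TGF-β1 arrays, a difference of -0.98 ± 0.16 (SE), adjusted p = 0.00982, and 4 of 4 probe sets were called lower. The 3 ligand genes did not move one way, and treated and untreated arrays did not overlap for any of them.

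Among receptors, Tgfbr3, the co-receptor betaglycan, fell from 1.88, 2.45 and 1.90 to -0.06, -0.15 and -0.11, a difference of -2.18 ± 0.16 (SE), adjusted p = 0.000148, whereas the kinases Tgfbr1 at 0.07 ± 0.32 and Tgfbr2 at 0.24 ± 0.16 were not called. Smad3 was lower at -0.61 ± 0.11 (limma adjusted p = 0.0133), with 1 of its 3 probe sets called, while Smad2 and Smad4 differed by -0.02 ± 0.08 and 0.11 ± 0.09. Several genes that damp the signal were called higher. Ldlrad4, which sequesters Smads as Pmepa1 does, was higher by 1.66 ± 0.16, the co-repressor Skil by 0.71 ± 0.11, the ligase Smurf1 by 0.45 ± 0.10 and the inhibitory Smad7 by 0.41 ± 0.10. The latent ligand-binding proteins Ltbp2 and Ltbp1 were higher by 1.24 ± 0.25 and 0.44 ± 0.10. Of 45 BMP ligands, receptors and antagonists, 3 were called higher (6.67%) and 2 lower (4.44%). The activin and BMP inhibitors follistatin, Fst, and Fstl3 were higher by 1.14 ± 0.10 and 1.17 ± 0.10 and the receptor Acvr1 by 0.86 ± 0.09, while the BMP antagonist Sostdc1 and the ligand Gdf10 were lower at -0.66 ± 0.11 and -1.12 ± 0.17. These BMP counts were 3 to 4 higher and 2 to 3 lower with 1 array left out, 6 and 6 with the replicate block, and 3 and 2 without the arrays numbered 2. The calls of Smad3 (2 arrays, 0.0593 without TGF-β1 replicate 1), Tgfb1 (4 arrays, 0.0893 without TGF-β1 replicate 3), Ltbp2 (3 arrays, 0.0946 without TGF-β1 replicate 1), Smurf1 (5 arrays, 0.105 without TGF-β1 replicate 1), Ltbp1 (7 arrays, 0.118 without TGF-β1 replicate 1) and Smad7 (8 arrays, 0.156 without TGF-β1 replicate 3) ended without some single arrays. The pathway counts were 4 to 8 higher and 2 to 3 lower with 1 array left out (fewest higher without TGF-β1 replicate 1), 13 and 4 with the replicate block, and 7 and 3 without the arrays numbered 2.

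Fibroblast growth factors and their receptors were called higher in 6 of 42 and lower in 1. Fgf18, a growth factor of skeletal tissue, had 0.00, 0.38 and -0.12 in the untreated arrays and 2.01, 2.54 and 2.13 in the TGF-β1 arrays, a difference of 2.14 ± 0.16 (SE), adjusted p = 0.00017. Fgf21, a hormone-like member best known from liver, had -0.32, -0.52 and -0.24 in the untreated arrays and 1.69, 1.74 and 1.45 in the TGF-β1 arrays, a difference of 1.99 ± 0.12 (SE), adjusted p = 4.93e-05. The groups were widely separated for both. Fgf2 and Fgf8 were higher by 0.50 ± 0.11 and 0.48 ± 0.10. The receptors diverged. Fgfr1 had -0.11, 0.02 and 0.00 in the untreated arrays and 0.53, 0.83 and 0.49 in the TGF-β1 arrays, a difference of 0.64 ± 0.10 (SE), adjusted p = 0.00647, and Fgfr2 had -0.05, 0.11 and 0.00 in the untreated arrays and -0.86, -1.03 and -0.91 in the TGF-β1 arrays, a difference of -0.95 ± 0.11 (SE), adjusted p = 0.00147. For each of them 1 of 3 probe sets was called. Fgfr3 differed by -0.95 ± 0.24 (limma adjusted p = 0.0558, and 0.032 with the block) and Fgfr4 by -0.57 ± 0.19 (adjusted p = 0.137). Fgfrl1, a receptor without a kinase, was higher by 0.31 ± 0.07. Single arrays ended the calls of Fgf2 (5 arrays, 0.107 without untreated replicate 1), Fgf8 (6 arrays, 0.108 without TGF-β1 replicate 3) and Fgfrl1 (8 arrays, 0.109 without untreated replicate 2). FGF family counts were 3 to 7 higher and 1 to 2 lower with 1 array left out (fewest higher without BMP4 replicate 1), 7 and 2 with the replicate block, and 4 and 1 without the arrays numbered 2.

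Other ligand and receptor pairs were measured on both sides. Of 65 EGF, neuregulin, PDGF, VEGF and HGF ligands and receptors, 4 were called higher (6.15%) and 5 lower (7.69%). Of 69 cytokines, chemokines and their receptors, 2 were called higher (2.90%) and 4 lower (5.80%), near the shares of all genes. With the replicate block these counts were 7 and 14, and 9 and 7, and without the arrays numbered 2 they were 6 and 3, and 5 and 3. Kitl, stem cell factor, had 0.08, 0.75 and -0.02 in the untreated arrays and -0.91, -0.88 and -0.92 in the TGF-β1 arrays, a difference of -1.17 ± 0.17 (SE), adjusted p = 0.00554, and its receptor Kit had 0.00, 0.09 and -0.08 in the untreated arrays and -0.54, -0.56 and -0.44 in the TGF-β1 arrays, a difference of -0.52 ± 0.08 (SE), adjusted p = 0.00921, both without overlap. For Kitl 1 of 4 probe sets was called. The cytokine Lif was higher by 0.66 ± 0.16 (limma adjusted p = 0.0469), and its receptor chains Lifr and Il6st were lower at -0.50 ± 0.11 and -0.66 ± 0.16 (adjusted p = 0.0378 and 0.0448). Pdgfb and Pdgfc were higher by 0.78 ± 0.11 and 0.62 ± 0.10, and Pdgfd lower at -0.70 ± 0.16. The receptor Pdgfra, also a mesenchymal marker, had 0.07, 1.18 and 0.37 in the untreated arrays and -0.53, 0.04 and -0.78 in the TGF-β1 arrays, a difference of -0.96 ± 0.31 that was not called (adjusted p = 0.122, and 0.00714 with the block). The ligand Gas6 was higher by 1.21 ± 0.07 (adjusted p = 4.77e-05), and neuropilin Nrp1, a co-receptor of semaphorins and VEGF, lower at -1.001 ± 0.11 (adjusted p = 0.0012). Chemokines Cxcl12 and Cxcl13 were lower at -0.89 ± 0.16 and -1.51 ± 0.26. Without some single arrays the calls of Cxcl13 (1 array, 0.0514 without untreated replicate 1), Cxcl12 (4 arrays, 0.0609 without TGF-β1 replicate 3), Lifr (6 arrays, 0.128 without untreated replicate 1), Pdgfd (6 arrays, 0.129 without TGF-β1 replicate 3), Il6st (6 arrays, 0.147 without TGF-β1 replicate 3) and Lif (8 arrays, 0.156 without TGF-β1 replicate 3) ended.

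**Figure D3:**
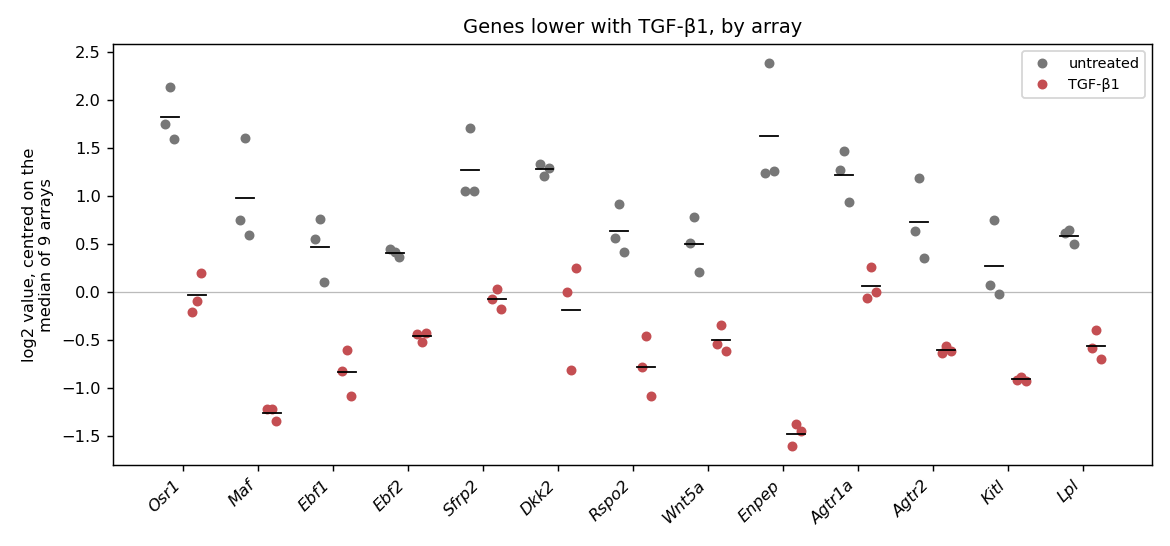
Centred log2 values on the 3 untreated (grey) and 3 TGF-β1 (red) arrays for genes lower with TGF-β1, comprising transcription factors (Osr1 to Ebf2), secreted Wnt regulators and Wnt5a (Sfrp2 to Wnt5a), angiotensin system genes (Enpep to Agtr2), Kitl and Lpl, with group means as black lines. All treated arrays lie below all untreated arrays for each gene, and untreated replicate 2 is the highest array for Osr1, Maf, Ebf1, Sfrp2, Rspo2, Wnt5a, Enpep, Agtr1a, Agtr2, Kitl and Lpl.

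In the Wnt pathway the falls were mostly of secreted members, while β-catenin and its co-receptors were not called. Of 81 members, 7 were called lower and 1 higher. Dkk2, a Wnt receptor antagonist, had 1.33, 1.20 and 1.29 in the untreated arrays and 0.00, -0.81 and 0.25 in the TGF-β1 arrays, a difference of -1.47 ± 0.22 (SE), adjusted p = 0.00635. Rspo2, an R-spondin that amplifies Wnt signals, had 0.57, 0.91 and 0.42 in the untreated arrays and -0.78, -0.46 and -1.08 in the TGF-β1 arrays, a difference of -1.41 ± 0.16 (SE), adjusted p = 0.0015. Sfrp2, a secreted Wnt-binding protein, had 1.06, 1.71 and 1.05 in the untreated arrays and -0.08, 0.03 and -0.17 in the TGF-β1 arrays, a difference of -1.34 ± 0.16 (SE), adjusted p = 0.00208. In all 3 the groups did not overlap, and agonists and antagonists were both among the falls. The ligand Wnt5a was lower at -0.996 ± 0.14, the antagonist Frzb at -0.86 ± 0.09, Rspo1 at -0.83 ± 0.12 and the polarity protein Vangl2 at -0.31 ± 0.07. The inhibitor Nkd2 rose by 1.02 ± 0.10 (adjusted p = 0.00077). Ctnnb1, β-catenin, differed by 0.23 ± 0.16, the co-receptors Lrp5 and Lrp6 by 0.28 and -0.04, and the target genes Axin2 and Lef1 by 0.01 ± 0.16 and -0.04 ± 0.13, none called. Wnt counts were 1 to 4 higher and 6 to 8 lower with 1 array left out, 6 and 11 with the replicate block, and 4 and 6 without the arrays numbered 2. The call of Vangl2 (8 arrays, 0.133 without TGF-β1 replicate 1) was lost without some single arrays.

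Genes that mark connective tissue progenitors made up the group with the highest share of falls among those plotted, 11 of 34 called lower and 0 higher by limma, against 16 and 3 at an unadjusted p under 0.05, with a median log2 difference of -0.32. The list was written with earlier results of these data known. Its share therefore describes the chosen genes and is no independent support for a fall of such genes as a class. Osr1, a zinc finger factor of irregular connective tissue, had 1.75, 2.13 and 1.59 in the untreated arrays and -0.21, -0.09 and 0.20 in the TGF-β1 arrays, a difference of -1.86 ± 0.15 (SE), adjusted p = 0.00026. Maf, a leucine zipper factor, had 0.75, 1.60 and 0.60 in the untreated arrays and -1.21, -1.22 and -1.34 in the TGF-β1 arrays, a difference of -2.24 ± 0.21 (SE), adjusted p = 0.000478. Ebf1, a helix-loop-helix factor of mesenchymal cells, had 0.55, 0.76 and 0.10 in the untreated arrays and -0.82, -0.60 and -1.08 in the TGF-β1 arrays, a difference of -1.30 ± 0.20 (SE), adjusted p = 0.00769, and Ebf2 differed by -0.87 ± 0.10 (adjusted p = 0.00135). The leptin receptor, Lepr, had 0.88, 2.31 and 1.05 in the untreated arrays and -0.70, 0.06 and -1.03 in the TGF-β1 arrays, a difference of -1.97 ± 0.40 (SE), adjusted p = 0.0236. No treated array reached an untreated one in these genes. Scara5, a ferritin receptor of fibroblasts, was lower at -1.41 ± 0.28, Aldh1a2, which makes retinoic acid, at -0.88 ± 0.19, and Prrx1 at -0.48 ± 0.11. The related Osr2 differed by -0.79 ± 0.22 (adjusted p = 0.0721, and 0.044 with the block) and Tcf21 by 0.12 ± 0.17. The mean centred log2 value of the list was 0.30, 0.65 and 0.29 on the untreated arrays and -0.17, -0.05 and -0.15 on the TGF-β1 arrays. Progenitor gene counts were 0 higher and 6 to 11 lower with 1 array left out (fewest lower without TGF-β1 replicate 1), 1 and 15 with the replicate block, and 0 and 11 without the arrays numbered 2. The removal of 1 array ended the calls of Scara5 (2 arrays, 0.0829 without TGF-β1 replicate 3), Lepr (3 arrays, 0.0975 without TGF-β1 replicate 3), Aldh1a2 (4 arrays, 0.1003 without TGF-β1 replicate 1) and Prrx1 (5 arrays, 0.117 without TGF-β1 replicate 1).

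Some markers of other cells that the culture could hold were also called. Of 18 blood and macrophage markers, 2 were called lower, Mrc1 at -0.86 ± 0.13 and Cd68 at -0.46 ± 0.09, and the list's mean centred value was 0.42, 0.08 and 0.44 on the untreated arrays and -0.28, 0.02 and -0.07 on the treated arrays. Blood marker counts were 0 higher and 1 to 6 lower with 1 array left out (fewest lower without TGF-β1 replicate 1), 0 and 3 with the replicate block, and 0 and 6 without the arrays numbered 2. The pan-leukocyte Ptprc differed by 0.25 ± 0.11 and was not called. Of 21 skeletal muscle markers 2 were called lower, Myh3 at -0.41 and Acta1 at -0.41, with list means of 0.03 to 0.23 on the untreated and -0.14 to -0.11 on the treated arrays. Muscle marker counts were 0 higher and 0 to 3 lower with 1 array left out, 0 and 8 with the replicate block, and 0 and 0 without the arrays numbered 2. Of 16 endothelial markers 1 was called, Erg, higher by 1.08 ± 0.26, and Pecam1 differed by -0.09, with endothelial counts of 0 to 2 higher and 0 lower with 1 array left out, 2 and 1 with the replicate block, and 1 and 0 without the arrays numbered 2. The study also lists Erg among the genes enriched in the developing disc at E13.5. Which cells of these cultures carried the Erg rise was not tested. The neuron list had 1 call among 20, the neurofilament gene Nefl at -1.68 ± 0.27, and neuronal counts of 0 higher and 1 to 2 lower with 1 array left out, 0 and 4 with the replicate block, and 0 and 2 without the arrays numbered 2. Of 14 notochord and epithelium markers 2 were called higher (14.3%) and 0 lower (0 lower at an unadjusted p under 0.05), the keratin Krt19 at 1.68 ± 0.35 and the claudin Cldn7 at 0.80 ± 0.18. The means of that list were -0.11, -0.17 and -0.09 on the untreated arrays and 0.09, 0.27 and 0.03 on the treated arrays, and its counts were 0 to 2 higher and 0 lower with 1 array left out (fewest higher without untreated replicate 1), 2 and 0 with the replicate block, and 1 and 0 without the arrays numbered 2. Of 15 neural tube and neural crest markers limma called 0 in either direction, with 2 higher and 2 lower at an unadjusted p under 0.05. The counts were 1 and 1 with the block, and 0 and 0 without the arrays numbered 2. Calls that depended on single arrays were those of Cd68 (3 arrays, 0.0764 without TGF-β1 replicate 3), Krt19 (5 arrays, 0.0892 without untreated replicate 1), Cldn7 (5 arrays, 0.1003 without untreated replicate 1), Acta1 (7 arrays, 0.119 without TGF-β1 replicate 1), Erg (7 arrays, 0.129 without untreated replicate 1) and Myh3 (8 arrays, 0.155 without TGF-β1 replicate 3). Their part in the other results was not tested.

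Patterning genes fell in the Hox clusters. Of 33 Hox genes, 6 were called lower and 0 higher by limma (11 and 3 at an unadjusted p under 0.05), and the called ones were all of paralogue groups 2 to 6. Hoxa2 had 0.42, 0.52 and -0.02 in the untreated arrays and -0.54, -0.32 and -0.43 in the TGF-β1 arrays, a difference of -0.73 ± 0.14 (SE), adjusted p = 0.0211. Hoxb6 had 0.08, 0.00 and -0.11 in the untreated arrays and -0.54, -0.45 and -0.48 in the TGF-β1 arrays, a difference of -0.48 ± 0.07 (SE), adjusted p = 0.00736. The arrays were apart for both. Hoxa3 differed by -0.68, Hoxd3 by -0.51, Hoxa5 by -0.47 and Hoxb5 by -0.45. Calls here rest on few arrays, with 0 to 1 higher and 1 to 6 lower with 1 array left out (fewest lower without TGF-β1 replicate 1), 1 and 10 with the replicate block, and 0 and 0 without the arrays numbered 2, and single arrays ended the calls of Hoxa5 (4 arrays, 0.0824 without TGF-β1 replicate 1), Hoxa2 (4 arrays, 0.0842 without TGF-β1 replicate 1), Hoxb5 (4 arrays, 0.0982 without untreated replicate 1), Hoxa3 (4 arrays, 0.101 without TGF-β1 replicate 1) and Hoxd3 (7 arrays, 0.129 without untreated replicate 1).

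Of 123 other homeobox genes, 4 were called higher (3.25%) and 5 lower (4.07%), near the shares of all genes. Mkx, a tendon factor, was higher by 1.29 ± 0.14, Cux2 by 1.35 ± 0.12 and Irx2 by 0.91 ± 0.10, and Irx1 was also called higher. Satb1 was lower at -0.58 ± 0.08, and Shox2, Tshz2, Prrx1 and Zfhx4 were also called lower. The homeobox counts were 3 to 5 higher and 2 to 8 lower with 1 array left out, 5 and 7 with the replicate block, and 3 and 1 without the arrays numbered 2. Of 72 helix-loop-helix factors, 6 were called higher (8.33%) and 4 lower (5.56%). Their counts were 2 to 6 higher and 3 to 5 lower with 1 array left out, 10 and 11 with the replicate block, and 6 and 4 without the arrays numbered 2. They included Bhlhe40, a repressor of the circadian system, which had 0.00, 0.13 and -0.16 in the untreated arrays and 1.25, 1.42 and 1.13 in the TGF-β1 arrays, a difference of 1.28 ± 0.13 (SE), adjusted p = 0.000937. Epas1, the hypoxia-inducible factor HIF-2α, had 0.21, 0.06 and 0.12 in the untreated arrays and -1.02, -0.94 and -0.82 in the TGF-β1 arrays, a difference of -1.06 ± 0.10 (SE), adjusted p = 0.00048. Tcf15, a somite gene also called paraxis, differed by 0.97 ± 0.16 (adjusted p = 0.0111). It was the only gene called higher of 23 sclerotome and somite genes (4.35%), and Prrx1 and Foxd1 were called lower (8.70%). The median log2 difference of that list was -0.21, with 2 higher and 7 lower by limma at an unadjusted p under 0.05. The list's counts were 0 to 2 higher and 0 to 4 lower with 1 array left out, 1 and 5 with the replicate block, and 1 and 1 without the arrays numbered 2. The sclerotome genes Pax1 and Pax9 differed by -0.51 ± 0.25 and -0.08 ± 0.19 and were not called, though Pax1 was with the block (adjusted p = 0.026). The Zfp and Zbtb zinc finger genes, 396 in all, had 4 called higher and 26 lower (6.57%), with a median log2 difference of -0.12. Zfp811 was lowest at -1.02 ± 0.17, followed by Zfp229 at -0.82 and Zfp551 at -0.81, and Zfp185, a LIM domain protein despite its name, was at 1.94 ± 0.09. Zinc finger counts were 1 to 4 higher and 7 to 36 lower with 1 array left out (fewest of both without TGF-β1 replicate 3), 11 and 56 with the replicate block, and 1 and 4 without the arrays numbered 2. The calls of Tcf15 (1 array, 0.0507 without TGF-β1 replicate 3) and Zfp229 (3 arrays, 0.074 without TGF-β1 replicate 3) ended without some single arrays.

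In the angiotensin system both receptors and an enzyme were lower. Enpep, aminopeptidase A, which trims angiotensin II, had 1.24, 2.38 and 1.26 in the untreated arrays and -1.60, -1.37 and -1.44 in the TGF-β1 arrays, a difference of -3.10 ± 0.26 (SE), adjusted p = 0.000275, the largest fall of any called gene. Agtr1a, the main angiotensin II receptor, had 1.27, 1.46 and 0.93 in the untreated arrays and -0.07, 0.26 and 0.00 in the TGF-β1 arrays, a difference of -1.16 ± 0.14 (SE), adjusted p = 0.00192. Agtr2, the second receptor, had 0.64, 1.19 and 0.35 in the untreated arrays and -0.63, -0.56 and -0.61 in the TGF-β1 arrays, a difference of -1.32 ± 0.17 (SE), adjusted p = 0.00269. The groups were apart in each case, and all were called whichever array was left out. Agt, the precursor, differed by 0.16 ± 0.12 and Ace, the converting enzyme, by -0.05 ± 0.15, and neither was called.

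Galanin and its receptor Galr1 were both called higher, and Galr1 was named after its values were seen. Gal, the neuropeptide galanin, had -0.17, -0.50 and -0.55 in the untreated arrays and 2.10, 1.42 and 1.35 in the TGF-β1 arrays, a difference of 2.03 ± 0.19 (SE), adjusted p = 0.000459, and its receptor Galr1 had -0.14, -0.21 and -0.07 in the untreated arrays and 0.37, 0.22 and 0.22 in the TGF-β1 arrays, a difference of 0.41 ± 0.08 (SE), adjusted p = 0.0155. Npr3, the natriuretic peptide clearance receptor, was higher by 0.86 ± 0.10. It belongs to a list of 81 receptors and related genes of peptides, lipids and amines, with 5 called higher (6.17%) and 5 lower (6.17%). The counts of that list were 1 to 4 higher and 4 to 5 lower with 1 array left out, 8 and 12 with the replicate block, and 2 and 5 without the arrays numbered 2. Regulators of G protein signalling, which shorten receptor signals, were called higher in 3 of 21 and lower in 0 by limma (2 lower at an unadjusted p under 0.05). Rgs10 had -0.16, -0.47 and -0.11 in the untreated arrays and 1.09, 1.03 and 1.10 in the TGF-β1 arrays, a difference of 1.32 ± 0.11 (SE), adjusted p = 0.000249, and Rgs2 and Rgs5 differed by 1.13 ± 0.21 and 0.81 ± 0.10. RGS counts were 2 to 3 higher and 0 lower with 1 array left out, 4 and 1 with the replicate block, and 4 and 0 without the arrays numbered 2. Single arrays ended the calls of Galr1 (3 arrays, 0.0631 without TGF-β1 replicate 1) and Rgs2 (3 arrays, 0.0716 without TGF-β1 replicate 1).

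Among lipid genes called, most were lower. Of 87, 11 were called lower and 3 higher. Lpl, lipoprotein lipase, had 0.62, 0.65 and 0.50 in the untreated arrays and -0.58, -0.39 and -0.69 in the TGF-β1 arrays, a difference of -1.15 ± 0.10 (SE), adjusted p = 0.00042. Cd36, a fatty acid transporter, had 0.14, 0.55 and 0.10 in the untreated arrays and -0.49, -0.69 and -0.62 in the TGF-β1 arrays, a difference of -0.86 ± 0.13 (SE), adjusted p = 0.00669. Gpat3, which starts glycerolipid synthesis, went the other way with -0.06, 0.30 and 0.00 in the untreated arrays and 2.82, 3.21 and 2.72 in the TGF-β1 arrays, a difference of 2.84 ± 0.14 (SE), adjusted p = 1.32e-05, the largest rise of any called gene. The lipid phosphatase Plpp3 was lower at -0.74 ± 0.11, the carnitine transferases Cpt1c and Cpt2 at -0.73 ± 0.11 and -0.61 ± 0.09, and the elongases Elovl2 and Elovl6 at -0.66 ± 0.12 and -0.59 ± 0.13. Angptl4, an inhibitor of lipoprotein lipase, was lower at -0.77 ± 0.12. Fatty acid synthase Fasn differed by 0.18 ± 0.09 and Gpam, the mitochondrial isozyme of Gpat3, by -0.05 ± 0.15, and Pparg by -0.10 ± 0.16, none called. Lipid gene counts were 1 to 3 higher and 5 to 11 lower with 1 array left out (fewest higher without TGF-β1 replicate 1 and fewest lower without untreated replicate 1), 4 and 17 with the replicate block, and 1 and 7 without the arrays numbered 2. The calls of Elovl2 (3 arrays, 0.0756 without TGF-β1 replicate 3) and Elovl6 (6 arrays, 0.129 without TGF-β1 replicate 1) ended without some single arrays.

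Guidance and synaptic adhesion genes were called lower in 7 of 48 and higher in 2. Slitrk1, a neuronal leucine-rich repeat protein, had 0.22, 1.11 and 0.17 in the untreated arrays and -0.94, -1.02 and -0.88 in the TGF-β1 arrays, a difference of -1.45 ± 0.21 (SE), adjusted p = 0.00542. Lrrtm1 differed by -1.01 ± 0.10, the netrin receptor Unc5d by -0.95 ± 0.18, and Flrt1 and Flrt3, ligands of Unc5 receptors, by -0.73 ± 0.09 and -0.56 ± 0.07. Nptx1, neuronal pentraxin, had 0.00, 0.12 and -0.14 in the untreated arrays and 2.14, 2.04 and 2.18 in the TGF-β1 arrays, a difference of 2.13 ± 0.11 (SE), adjusted p = 1.68e-05, and Lrig3 had 0.00, 0.00 and 0.00 in the untreated arrays and 0.83, 0.78 and 0.83 in the TGF-β1 arrays, a difference of 0.81 ± 0.07 (SE), adjusted p = 0.000237, both clear of the untreated arrays. Plexin Plxnc1 was lower at -1.27 ± 0.19, and ephrins Efna3 and Efnb2 were higher by 0.96 ± 0.11 and 0.79 ± 0.16 while Efnb3 was lower at -0.54 ± 0.08. Guidance gene counts were 2 higher and 4 to 8 lower with 1 array left out (fewest lower without TGF-β1 replicate 1), 5 and 10 with the replicate block, and 3 and 5 without the arrays numbered 2. The removal of 1 array ended the calls of Unc5d (3 arrays, 0.072 without TGF-β1 replicate 1) and Efnb2 (3 arrays, 0.0857 without TGF-β1 replicate 1).

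Ribosomal, oxidative phosphorylation and cell cycle genes had few calls. Of 48 cytosolic ribosomal protein genes limma called 0 higher and 0 lower, with 3 and 2 at an unadjusted p under 0.05. Of 92 oxidative phosphorylation subunits 1 was called, lower. Of 63 cell cycle genes 4 were called lower (6.35%), near the share of all genes (4.21%). They were Ccnf at -0.56, Ccnb2 at -0.41, Bub1b at -0.39 and Mki67 at -0.33. At an unadjusted limma p under 0.05, 1 cell cycle gene was higher and 18 were lower. The median log2 difference of the cell cycle genes was -0.11. Cell cycle counts were 0 higher and 0 to 4 lower with 1 array left out (fewest lower without TGF-β1 replicate 1), 0 and 10 with the replicate block, and 0 and 0 without the arrays numbered 2, ribosomal counts 0 higher and 0 to 1 lower with 1 array left out, 0 and 2 with the replicate block, and 1 and 0 without the arrays numbered 2, and oxidative phosphorylation counts 0 higher and 0 to 1 lower with 1 array left out (fewest lower without TGF-β1 replicate 1), 1 and 3 with the replicate block, and 0 and 0 without the arrays numbered 2. Cyclin D, CDK inhibitor and growth arrest genes had 3 called higher and 2 lower of 48, and the counts were 1 to 3 higher and 0 to 3 lower with 1 array left out (fewest of both without TGF-β1 replicate 1), 7 and 7 with the replicate block, and 4 and 2 without the arrays numbered 2. The stress gene Gadd45b was higher by 1.29 ± 0.13, while the related Gadd45a was lower at -0.62 ± 0.11 and the p53 target Sesn1 at -1.03 ± 0.22. Apoptosis genes had 4 called higher and 2 lower of 41, with counts of 2 to 4 higher and 0 to 2 lower with 1 array left out (fewest higher without BMP4 replicate 1 and fewest lower without TGF-β1 replicate 1), 6 and 3 with the replicate block, and 2 and 0 without the arrays numbered 2. Pmaip1 and Ier3 were higher by 1.52 ± 0.17 and 1.62 ± 0.36, and the caspases Casp9 and Casp6 were lower at -0.56 ± 0.12 and -0.46 ± 0.09. The calls of Gadd45a (2 arrays, 0.0545 without TGF-β1 replicate 1), Ccnb2 (2 arrays, 0.0557 without TGF-β1 replicate 1), Bub1b (4 arrays, 0.0707 without untreated replicate 1), Casp6 (5 arrays, 0.0818 without TGF-β1 replicate 3), Casp9 (4 arrays, 0.0846 without TGF-β1 replicate 2), Sesn1 (5 arrays, 0.102 without TGF-β1 replicate 3), Ier3 (5 arrays, 0.127 without TGF-β1 replicate 3), Mki67 (9 arrays, 0.14 without TGF-β1 replicate 1) and Ccnf (8 arrays, 0.168 without TGF-β1 replicate 3) ended without some single arrays.

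Whether these changes belong to TGF-β1 or are shared with a related factor was asked by the direct contrast with BMP4 at 50 ng/ml, where 860 genes were called higher with TGF-β1 (4.73%) and 978 lower (5.38%). Both comparisons with untreated use the same untreated arrays, so their values are set side by side only, and the contrast between the factors is the test. Of the secretory genes, 12 of 58 were called higher with TGF-β1 than with BMP4 and 1 lower. Kdelr3 was 0.97 against untreated with TGF-β1 and 0.42 with BMP4, a difference of 0.54 (95% interval 0.33 to 0.75, limma adjusted p = 0.00701), and Sec24d was 0.57 and -0.12, a difference of 0.68 (adjusted p = 0.000978). Among amino acid and stress genes 3 of 49 were higher than with BMP4 and 6 lower. Chac1 was 1.58 and 1.26 with a difference of 0.32 (-0.16 to 0.80), Slc7a1 was 0.97 and 0.86 with 0.10 (-0.26 to 0.47), and Aldh1l2 was 0.99 and 0.76 with 0.23 (-0.06 to 0.52), none of which passed the test. Nupr1 did, at 1.57 and 0.43 (adjusted p = 0.000487).

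**Figure D4:**
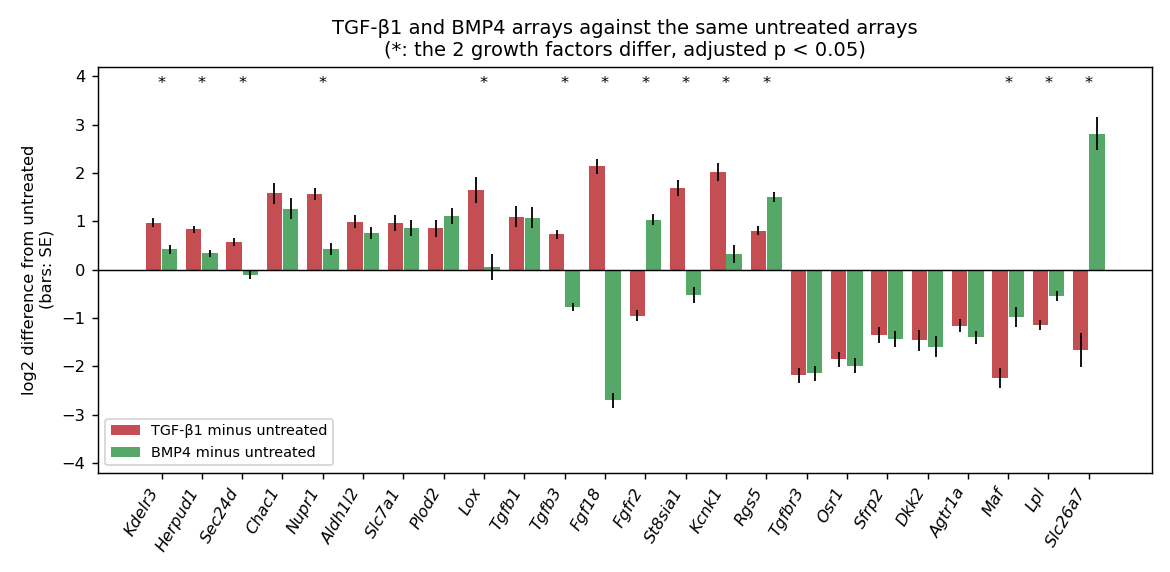
Log2 differences from untreated with TGF-β1 (red) and with BMP4 (green) for 24 genes, with bars for the SE, and an asterisk where the contrast between the factors has a limma adjusted p under 0.05. Tgfb3, Fgf18, Fgfr2, St8sia1 and Slc26a7 lie on opposite sides of 0, while Tgfbr3, Osr1, Sfrp2, Dkk2 and Agtr1a lie below 0 with both factors and carry no asterisk.

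Several of the deepest falls were close to those with BMP4. Tgfbr3 was -2.18 with TGF-β1 and -2.14 with BMP4, and their difference was -0.04 (95% interval -0.39 to 0.31). Osr1 was -1.86 and -1.99 with 0.13 (-0.21 to 0.48), Sfrp2 -1.34 and -1.43 with 0.08 (-0.28 to 0.45), Dkk2 -1.47 and -1.60 with 0.13 (-0.36 to 0.62), Lepr -1.97 and -1.96 with -0.01 (-0.91 to 0.88), and Agtr1a -1.16 and -1.40 with 0.24 (-0.07 to 0.55). These intervals do not show that the factors act alike. Maf was -2.24 and -0.98, and here the factors differed by -1.26 (adjusted p = 0.0054), as for Lpl at -1.15 and -0.55 (adjusted p = 0.00667) and Enpep at -3.10 and -1.74 (adjusted p = 0.0121).

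Other genes took opposite signs or differed in size between the factors. Fgf18 was 2.14 with TGF-β1 and -2.70 with BMP4, a difference of 4.84 ± 0.16 (adjusted p = 1.25e-06), and Tgfb3 was 0.73 and -0.77, a difference of 1.50 ± 0.09 (adjusted p = 1.5e-05). Fgfr2 was -0.95 and 1.03 (adjusted p = 1.25e-05), Kit -0.52 and 0.97 (adjusted p = 1.35e-05), St8sia1 1.68 and -0.52 (adjusted p = 6.45e-05) and Slc26a7 -1.66 and 2.81 (adjusted p = 7.44e-05). Tgfb1 was 1.09 and 1.08, with a difference of 0.02 (-0.47 to 0.50) that did not pass. Rgs5 was higher with both factors and more so with BMP4, at 0.81 and 1.51 (adjusted p = 0.00224).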

How the data were processed

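The series holds 9 arrays, 3 each of untreated, TGF-β1-treated and BMP4-treated sclerotome cultures, and the TGF-β1 and untreated arrays are compared here. The authors hybridised RNA to whole-genome Affymetrix mouse arrays and summarised probes by RMA. The deposited log2 values were centred per probe set on the median of the 9 arrays by the authors, as tested on the values, so they hold no level, and their number limits the precision. The study's methods say the experiment was set up 3 separate times. The labels' protocols differ on whether factors were added at plating or after overnight culture.

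Values were fitted as deposited with limma 3.58.1 in R 4.3.3 (lmFit and eBayes, 3 groups, no block), two-sided, with Benjamini-Hochberg adjustment over 45037 non-control probe sets. Of these, 34945 carried 1 gene symbol, 932 several and 9160 none in the platform annotation, and the first kind made 18193 genes, each represented by its most variable probe set. Every adjusted p in the text comes from limma. SE is the standard error of the log2 difference over 3 arrays a group. A probe set was called when its own adjusted p was under 0.05.

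Deviations from group means correlated between same-numbered TGF-β1 and untreated arrays at 0.137, 0.494 and 0.277, and between TGF-β1 and BMP4 arrays at 0.290, 0.497 and 0.377. Between untreated and BMP4 arrays the values were -0.0485, 0.502 and 0.239, and untreated replicate 1 correlated more with TGF-β1 replicate 3, at 0.202, than with replicate 1. These values do not settle whether the numbers pair the samples. The replicate number is therefore a block only in an alternative fit, and the main fit takes no pairing.

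Members and the 109 gene lists, 55 written by hand and 54 taken by symbol, were chosen with earlier results of these data known, and lists overlap. Named genes were the 20 largest non-overlapping rises and falls, up to 5 called members of each list in each direction, uncalled ligands, receptors and main enzymes, and the label markers. Sec24d, Surf4, Sec13, Sec31a, Sec23b, Sec61a1, Manf, Kdelr2, Sar1a, Gorasp2, Uso1, Golim4, Trib3, Mthfd2, Aldh18a1, Shmt2, Phgdh, Ckb, Loxl3, P3h4, P3h1, Emilin1, Smurf1, Smad7, Ltbp1, Fgfrl1, Rspo1, Vangl2, Hoxb5, Galr1, Cpt2 and Elovl6 are outside that rule and were named after their values were seen, as were the amino acid and stress motifs. Promoter windows are from RefSeq. The fit was tested on simulated data. Alternatives were array weights, median and quantile scaling, the replicate block, robust moderation, the compared groups alone, the methods' t-test, filters on probe sets, the mean of a gene's probe sets and leaving out arrays. Where the removal of different arrays gave the same fewest calls, only the first is named, in the order BMP4, TGF-β1, untreated.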

Additional observations from a re-analysis of the deposited data

How the results depend on the processing

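Between TGF-β1 and untreated, 1993 probe sets and 1228 genes were called, and between TGF-β1 and BMP4 3110 probe sets. Leaving out 1 array gave 867 to 2053 probe sets, 539 to 1263 genes and 1877 to 3330 probe sets against BMP4, lowest without TGF-β1 replicate 3 for the first 2 and without BMP4 replicate 1 for the last. Without the arrays numbered 2, chosen after seeing the data, the counts were 888, 601 and 1819. With the replicate block they were 4029, 2430 and 5252, so the block added calls across the genome. It ended none of the calls of the 444 named genes. Among the uncalled genes given by value, it changed no other call than those given with their results. The fit of only the compared groups called 1172 probe sets and 741 genes against untreated. The methods' t-test, at an unadjusted p under 0.05 and 2-fold, called 253 probe sets against untreated and 543 against BMP4, and after Benjamini-Hochberg 0 and 11. The cause of these differences was not tested beyond the fewer arrays or the other spread estimate that each uses. Over 8838 pairs of a named gene and an alternative, direction was kept in 8837 and the call in 6808, and 211 genes were called whichever array was left out. The exception in direction was gene Car10, at 0.0005617 with the mean of a gene's probe sets. Other settings kept the counts within 1.5 times. With 3 arrays a group and centred values, signal over background could not be judged.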
